A study of Xenopus tropicalis with 7 samples.

Results

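The cytoplasmic ribosomal protein genes were taken from the poly(A) RNA profiles of *Xenopus tropicalis* embryos as every gene whose symbol starts with rpl, rps or rplp and a number, leaving out the S6 kinases. 75 of the 19884 genes in the table fit this rule: 40 of the large subunit, 3 of the large subunit's stalk, 29 of the small subunit, and 3 (*rpl22l1*, *rpl3l* and *rps28p9*) whose symbols mark a paralogue or a copy. All 75 were among the 16944 genes tested, those with at least 10 reads over the 6 stage 32 libraries. Embryos of the Nigerian strain (Cam4) received at the 1-cell stage either 20 ng in total of morpholinos against *Xbra* and *Xbra3* (the genes *t* and *t2*), called Xbra/Xbra3 KD, or 20 ng of a control morpholino made against human β-globin. A morpholino is an antisense oligonucleotide that blocks splicing or translation of its transcript. Both groups were collected at stage 32, an early tadpole, in 3 libraries each, and 1 further library came from uninjected embryos at stage 20. Each library holds the RNA equivalent of 2 whole embryos, so fewer cells of a type and less RNA per cell cannot be told apart.

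A ribosome has a large subunit, which joins amino acids, and a small subunit, which reads the mRNA, and each carries 1 copy of nearly every ribosomal protein. The acidic stalk proteins P1 and P2, bound to P0, are carried in more copies and recruit elongation factors. In vertebrates the mRNAs of these proteins start with a terminal oligopyrimidine (TOP) tract, through which nutrient and mTOR signalling control their translation together. Early *Xenopus* embryos live on maternal ribosomes, and new ribosomal protein mRNAs build up during the tail bud stages.

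Libraries held 73740300 to 120160026 reads. The targeted genes followed the labels: *t2* had 0.515 to 0.772 CPM (read counts relative to the library total after TMM scaling) in the KD libraries and 14.5 to 27.3 CPM in the control libraries, and *t* had 6.30 to 8.55 CPM in KD and 9.90 to 17.5 CPM in control. Markers of muscle, nerve, notochord, epidermis and blood all gave reads. Of 19 muscle markers 14 fell in KD (edgeR, FDR below 10%), and their summed share of reads was 1.84 to 2.09% in KD and 3.48 to 4.06% in control. Of 14 neural markers 5 rose, with summed shares of 0.174 to 0.204% in KD and 0.115 to 0.141% in control, and 4 of 7 notochord markers fell. Of 9 epidermis markers 1 fell and 2 rose, and of 9 blood markers tested 1 fell. Over all genes tested 6.98% fell and 7.44% rose. The part of this change in tissue makeup in the ribosomal protein values below was not tested.

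Ribosomal protein mRNA took a similar share of reads in KD and control embryos. In each same-numbered pair of libraries the share was slightly higher in KD. A share is relative to the library size alone. With that scaling the median log2 fold change was also above 0 for all genes tested, at 0.083, beside 0.12 for the 75. The 75 genes together took 9.36, 12.2 and 11.5% of all reads in KD libraries 1, 2 and 3, and 9.11, 11.3 and 10.5% in control libraries 1, 2 and 3. The groups overlapped, with means of 11.0 ± 1.47% in KD and 10.3 ± 1.13% in control (SD, n = 3 each). The libraries numbered 1 were the lowest of both groups. Between same-numbered libraries the ratio of KD to control was 1.03, 1.07 and 1.09, and the ratio of the group means was 1.07. Without KD library 1 this ratio was 1.15, and without control library 1 it was 1.01. Each of these keeps the lowest library of 1 group only, which moves the ratio of the group means. Pairs 2 and 3 had ratios of 1.07 and 1.09. At stage 20 the share was 5.68%.

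**Figure D1:**
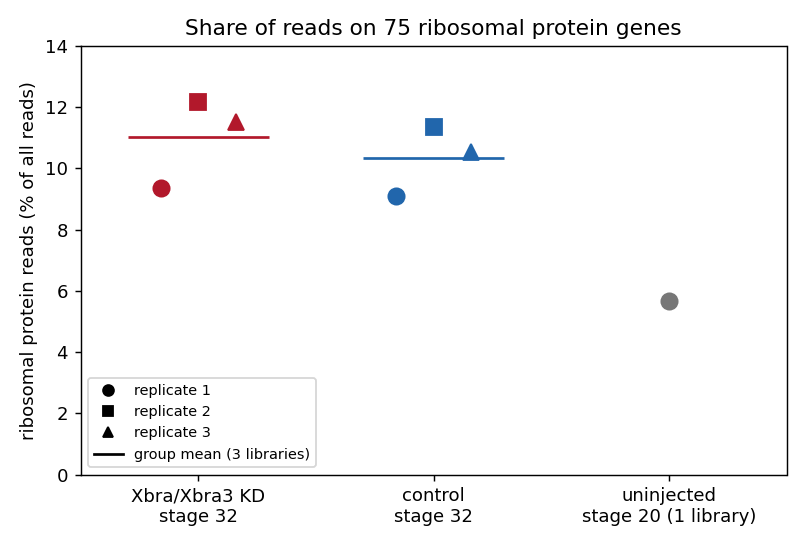
Reads on the 75 ribosomal protein genes as a percent of all reads of each library, with 3 KD, 3 control and 1 stage 20 library; horizontal lines are group means. The KD libraries lie at 9.36 to 12.2% and the control libraries at 9.11 to 11.3%, so the groups overlap. Library 1 is lowest in both groups, and the stage 20 library lies at 5.68%.

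The same difference between libraries ran through nearly the whole family. KD library 1 was the lowest of the KD libraries for 68 of the 75 genes, and control library 1 the lowest of the control libraries for 62. Set against the control mean of each gene, the median gene stood at -0.13 in KD library 1, 0.14 in KD library 2 and 0.13 in KD library 3 on the log2 scale, and at -0.11, 0.067 and 0.050 in control libraries 1, 2 and 3. The other genes with a mean of at least 10000 reads had medians of 0.026, -0.14 and -0.049 in KD and 0.099, -0.12 and 0.0068 in control. Medians that differ between libraries were therefore not particular to the family, though these were highest in the libraries numbered 1. How often library 1 was lowest was not counted over all genes. The ribosomal protein genes shared a level within a library, and that level differed more between libraries of 1 group than between the groups. Both groups had it lowest in library 1, so part of the spread within a group went with the replicate number. It is therefore no measure of the error of the paired difference, for which the share ratios were 1.03, 1.07 and 1.09. The markers of blood and of yolk and gut varied between libraries in the same order as the ribosomal protein share. The 10 blood markers, of which 9 were tested, took 0.214, 0.492 and 0.357% of reads in KD libraries 1, 2 and 3. In control libraries 1, 2 and 3 they took 0.251, 0.402 and 0.349%. The 10 yolk and gut markers took 0.0639, 0.301 and 0.207% in KD and 0.154, 0.492 and 0.296% in control. Both were lowest in the libraries numbered 1 and highest in those numbered 2. The 9 epidermis markers ran in the reverse order, at 0.613, 0.303 and 0.381% in KD and 0.521, 0.290 and 0.451% in control. Such differences were not particular to these lists. Muscle markers were also lowest in the libraries numbered 1, at 1.84, 2.02 and 2.09% in KD and 3.48, 4.06 and 3.63% in control. Neural markers were highest in those numbered 2, at 0.181, 0.204 and 0.174% in KD and 0.115, 0.141 and 0.117% in control. Notochord markers were highest in those numbered 1. The part of any of these tissues in the shared level was not tested.

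In the fit across all genes (edgeR's quasi-likelihood test, TMM scaling, Benjamini-Hochberg adjustment over 16944 genes, FDR below 10%), 4 ribosomal protein genes fell in KD and 1 rose. Over all genes tested 6.98% fell and 7.44% rose. Because ribosomal proteins give many reads, the genes with a mean of at least 10000 reads were a second background. Of these, 10.1% fell and 5.94% rose, against 3 and 1 of the 71 ribosomal protein genes of that depth. At an unadjusted p below 0.05, 5 were lower and 4 higher, beside 12.3% lower and 12.9% higher of all genes. The median log2 fold change of the 75 was 0.048, with 45 values above 0 and 30 below, and that of all genes 0.010. The spread between genes was narrower in the family, with an interquartile range of 0.22 against 0.61 over all genes. Among genes with a mean of at least 10000 reads, whose counting error is likewise small, the interquartile range was 0.21 for the 71 ribosomal protein genes, with a median of 0.050, and 0.41 for all 1752, with a median of -0.032. For 58 of the 75 the 95% interval of the change lay within 1.5-fold in both directions, against 4391 of the 16944 genes tested and 887 of the 1752 genes with a mean of at least 10000 reads.

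**Figure D2:**
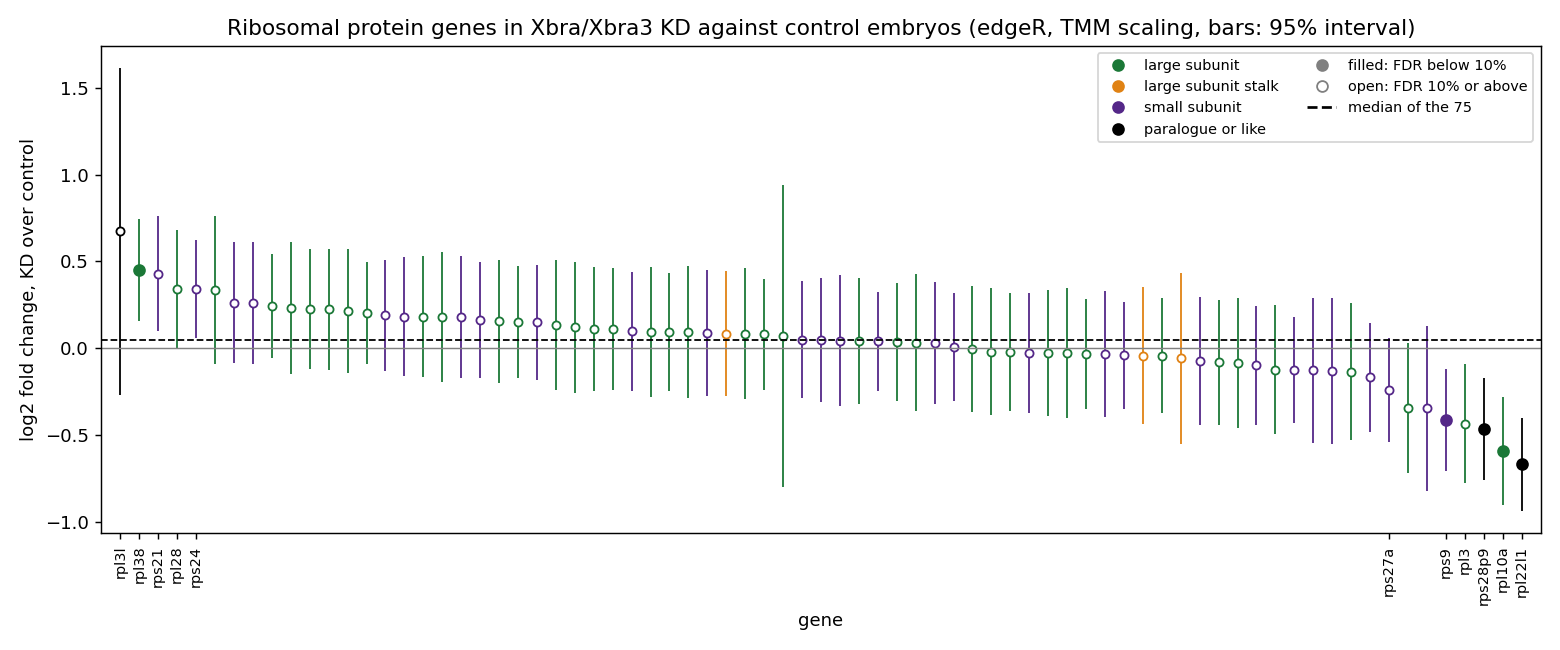
Log2 fold change, KD over control, of the 75 ribosomal protein genes in order of size, with 95% intervals, coloured by subunit and with names for some of them; filled points have an FDR below 10% in edgeR and the dashed line is their median, 0.048. *rpl38* is the filled point above 0, and *rps9*, *rps28p9*, *rpl10a* and *rpl22l1* are those below.

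The size of the family's common shift depended on how libraries were scaled. A change of scaling moves every gene alike, so the distance between the family and the other genes is nearly fixed by construction. Over 9 scalings the median of the 75 genes ran from 0.030, with the sum of ribosomal protein reads as the library size, to 0.13, with the library size less those reads. The first divides the 75 genes by their own sum, which holds their median near 0 by construction. Apart from it the lowest was 0.035, with DESeq2's size factors. Library size alone gave 0.12 for the 75 and 0.083 for all genes. TMM computed without the 75 genes gave 0.048, as TMM with them did. The median of the 75 less that of all genes was 0.032 to 0.041 over the scalings. It was -0.020 without control library 1 and 0.14 without KD library 1, each of which keeps library 1 in 1 group only. Scaling to *odc1*, *rpl8*, *eef1a1* and *gapdh*, of which *rpl8* belongs to the family, gave 0.11. Scaling to the 3 of them other than *rpl8* gave 0.12. *rpl8* itself, a large subunit protein, had 1904, 2345 and 2389 CPM in KD and 2110, 2434 and 2184 CPM in control, a log2 fold change of -0.02 ± 0.16 (SE).

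The shift under TMM was smaller than the spread between pairs of libraries. Between same-numbered libraries the median of the 75 under TMM was -0.021, 0.073 and 0.10, with an SD of 0.065. That is the spread of single pairs, not the error of their mean. For the shift of 0.12 under library size the spread between pairs was not computed. Leaving out KD library 1 raised the median under TMM to 0.14. It was -0.018 without KD library 2, -0.016 without KD library 3 and -0.0096 without control library 1. The calls also depended on the scaling. Library size gave 3 genes lower and 2 higher, beside 5.13% and 9.73% of all genes. Scaling to *odc1*, *eef1a1* and *gapdh* gave 0 lower and 0 higher, beside 411 lower and 802 higher over all genes.

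**Figure D3:**
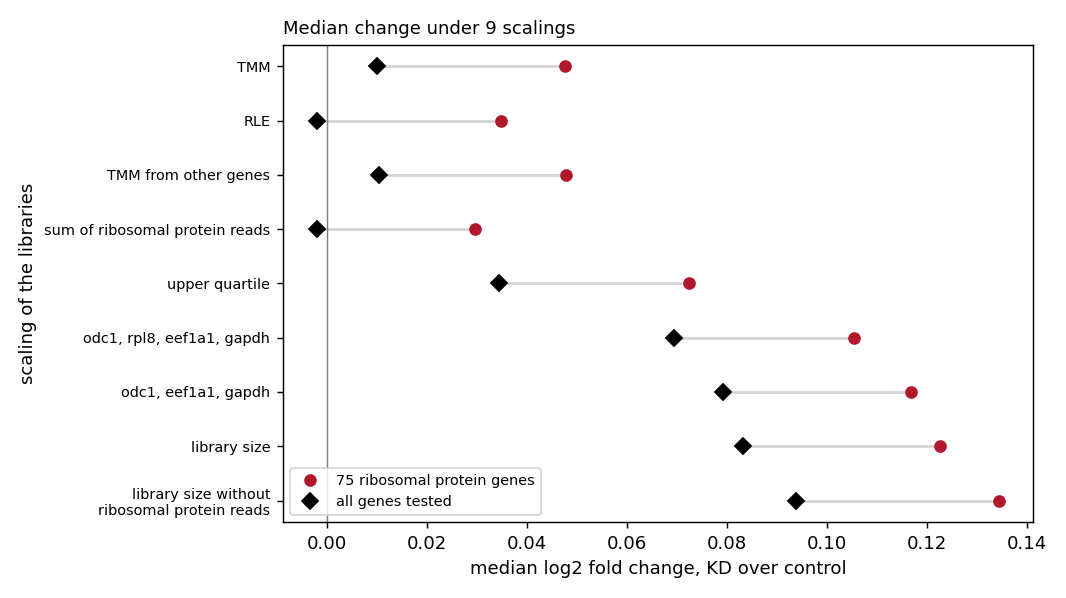
Median log2 fold change, KD over control, of the 75 ribosomal protein genes (circles) and of all 16944 genes tested (diamonds) under 9 ways of scaling the libraries. Both move together by construction, since a scaling shifts all genes alike, and the gap between them is 0.032 to 0.041. Scaling by the sum of ribosomal protein reads holds the circle near 0 by construction.

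Among the 40 large subunit genes *rpl10a* (ENSXETG00000012374) fell and *rpl38* (ENSXETG00000025319) rose, and the group's median was 0.089. *rpl10a* encodes uL1, the protein of the mobile arm beside the site where spent tRNA leaves. It had 1133, 1072 and 1172 CPM in KD and 1806, 1747 and 1542 CPM in control, so that every KD library lay below every control library. Its log2 fold change was -0.59 ± 0.13 (SE; edgeR, FDR = 0.0386). The FDR was 0.12 without KD library 2, 0.106 without control library 1 and 0.105 without control library 3. Fits without 1 library, here and below, had no term for the replicate number. Blocking on that number, with all 6 libraries, gave an FDR of 0.00295, in a fit that called 19% of all genes lower and 19.2% higher.

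*rpl38* encodes eL38, a small protein on the surface of the large subunit. In the mouse its loss causes the Tail short defects of the axial skeleton and reduces translation of some Hox mRNAs. It had 495, 538 and 621 CPM in KD and 402, 426 and 383 CPM in control, with no overlap. The log2 fold change was 0.45 ± 0.13 (SE; edgeR, FDR = 0.0746). Of the 6 fits that leave out 1 library, it passed only without KD library 1 (FDR = 0.0858). The others gave an FDR of 0.115 to 0.231, and the fit blocked on the replicate number gave 0.0128.

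*rpl3* (ENSXETG00000006914), whose protein uL3 reaches towards the centre where peptide bonds form, had the second most reads of the family. It had 3080, 2853 and 2950 CPM in KD and 4064, 3899 and 4039 CPM in control. The groups did not overlap, and the log2 fold change of -0.43 ± 0.15 (SE; edgeR) had an FDR of 0.118. Blocking on the replicate number gave an FDR of 0.00705. *rpl4*, a protein that lines the exit tunnel and had the most reads, was at 3477, 4128 and 4241 CPM in KD and 3536, 3782 and 3855 CPM in control, with a log2 fold change of 0.08 ± 0.16 (SE). Per 100 reads of *rpl4* there were therefore 88.6, 69.1 and 69.6 of *rpl3* in KD, against 114.9, 103.1 and 104.8 in control and 147.7 at stage 20.

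*rpl28*, which encodes eL28, had 777, 964 and 1007 CPM in KD and 653, 759 and 755 CPM in control. The groups did not overlap, and the log2 fold change of 0.34 ± 0.15 (SE) had an FDR of 0.195. *rpl32*, by contrast, varied with the replicate number, at 300, 353 and 718 CPM in KD libraries 1, 2 and 3 and 284, 415 and 607 CPM in control libraries 1, 2 and 3. It had the widest interval of the genes with many reads, from -0.80 to 0.94.

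The stalk proteins and the proteins that travel with 5S rRNA showed no difference beyond the spread. *rplp0*, the base of the stalk, had 317, 500 and 545 CPM in KD and 436, 552 and 432 CPM in control. *rplp1* had a log2 fold change of -0.04 ± 0.17 (SE) and *rplp2* of 0.08 ± 0.16 (SE). None of the 3 stalk genes passed in edgeR or in DESeq2, and none had an unadjusted p below 0.05. *rpl5* and *rpl11* bind 5S rRNA, and outside the ribosome they bind the p53 regulator Mdm2 in mammalian cells. *rpl5* had 2768, 3397 and 2966 CPM in KD and 3036, 3498 and 3143 CPM in control, and *rpl11* 1287, 1626 and 1559 CPM in KD and 1313, 1593 and 1588 CPM in control. The 95% interval of the log2 fold change was -0.46 to 0.29 for *rpl5* and -0.37 to 0.36 for *rpl11*.

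Among the 29 small subunit genes *rps9* (ENSXETG00000009030) fell, and the group's median was 0.040. *rps9* encodes uS4, one of the proteins that bind the small subunit's RNA first during assembly. It had 1196, 1256 and 1233 CPM in KD and 1526, 1677 and 1704 CPM in control, with no overlap and a log2 fold change of -0.41 ± 0.13 (SE; edgeR, FDR = 0.0918). It passed in none of the 6 fits without 1 library, whose FDR ran from 0.138 to 0.268, and library size alone gave 0.148. With the replicate block its FDR was 0.00787.

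*rps21* (ENSXETG00000002012), which encodes eS21, had 614, 776 and 769 CPM in KD and 485, 583 and 536 CPM in control. Its groups did not overlap, and its log2 fold change was 0.43 ± 0.14 (SE; edgeR, FDR = 0.113), or FDR = 0.089 without KD library 1. *rps24*, mutated in some patients with Diamond-Blackfan anaemia, had 297, 347 and 282 CPM in KD and 245, 229 and 256 CPM in control, with an FDR of 0.129, or 0.0905 with library size alone. *rps27a*, which is made as a fusion with ubiquitin, had 970, 937 and 1037 CPM in KD and 1053, 1208 and 1218 CPM in control, with an FDR of 0.294.

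None of *rps6*, *rps19*, *rps2* and *rps27* passed the test. *rps6*, whose protein S6 kinase phosphorylates, had 2766, 3314 and 3044 CPM in KD and 2876, 3250 and 3227 CPM in control. *rps19*, the gene most often mutated in Diamond-Blackfan anaemia, had 1156, 1373 and 1269 CPM in KD and 1233, 1371 and 1304 CPM in control. Both had a log2 fold change of -0.04, with an SE of 0.16 for *rps6* and 0.13 for *rps19*. *rps2*, which was among the 5 genes with the most reads, had a log2 fold change of -0.13 ± 0.18 (SE). *rps27* gave 2814 reads over the 6 libraries, and had 3.32, 4.01 and 5.10 CPM in KD and 5.50, 5.23 and 5.10 CPM in control, with a log2 fold change of -0.35 ± 0.21 (SE; edgeR, FDR = 0.341). Pairs that matched transcripts of different genes had been discarded by the authors, so the counts of genes with near-identical copies are uncertain.

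The 2 other genes that fell were among the 3 whose symbols mark a paralogue or a copy. *rpl22l1* (ENSXETG00000009154) encodes a paralogue of the large subunit protein eL22, and in the mouse Rpl22 holds down the expression of Rpl22l1. It had 76.1, 77.9 and 72.0 CPM in KD and 107, 119 and 132 CPM in control, so that the highest KD library lay well below the lowest control library. The log2 fold change was -0.67 ± 0.12 (SE; edgeR, FDR = 0.0161). It passed in all 6 fits without 1 library, with an FDR of 0.0318 to 0.081, and the replicate block gave 0.00222. *rpl22* had 866, 1017 and 985 CPM in KD and 796, 873 and 819 CPM in control, with a log2 fold change of 0.20 ± 0.13 (SE; FDR = 0.362). Per 100 reads of *rpl22* there were 8.79, 7.65 and 7.31 of *rpl22l1* in KD, against 13.5, 13.7 and 16.1 in control and 12.7 at stage 20. This ratio needs no scaling of the libraries, and the groups did not overlap in it.

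*rps28p9* (ENSXETG00000021905) carries the name of a human *RPS28* pseudogene, and whether it is the *Xenopus tropicalis* *rps28* gene itself or a copy was not settled here. It had 363, 332 and 394 CPM in KD and 507, 546 and 452 CPM in control, with no overlap and a log2 fold change of -0.47 ± 0.13 (SE; edgeR, FDR = 0.0672). It passed in 1 of the 6 fits without 1 library, that without KD library 3 (FDR = 0.0993). The others gave 0.125 to 0.169, and the replicate block gave 0.0146. *rpl3l*, a paralogue of *rpl3* known in mammals from skeletal and heart muscle, gave only 309 reads over the 6 libraries. It had 0.518, 0.729 and 0.711 CPM in KD and 0.394, 0.231 and 0.650 CPM in control, and its log2 fold change of 0.67 had a 95% interval of -0.27 to 1.61.

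Counted over the family, 6 genes had every KD library below every control library and 4 had every KD library above. Over all genes these shares were 14.6% and 15.9%. The 6 were *rpl22l1*, *rpl10a*, *rps28p9*, *rpl3*, *rps9* and *rps27a*, and the 4 were *rps24*, *rpl28*, *rps21* and *rpl38*.

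**Figure D4:**
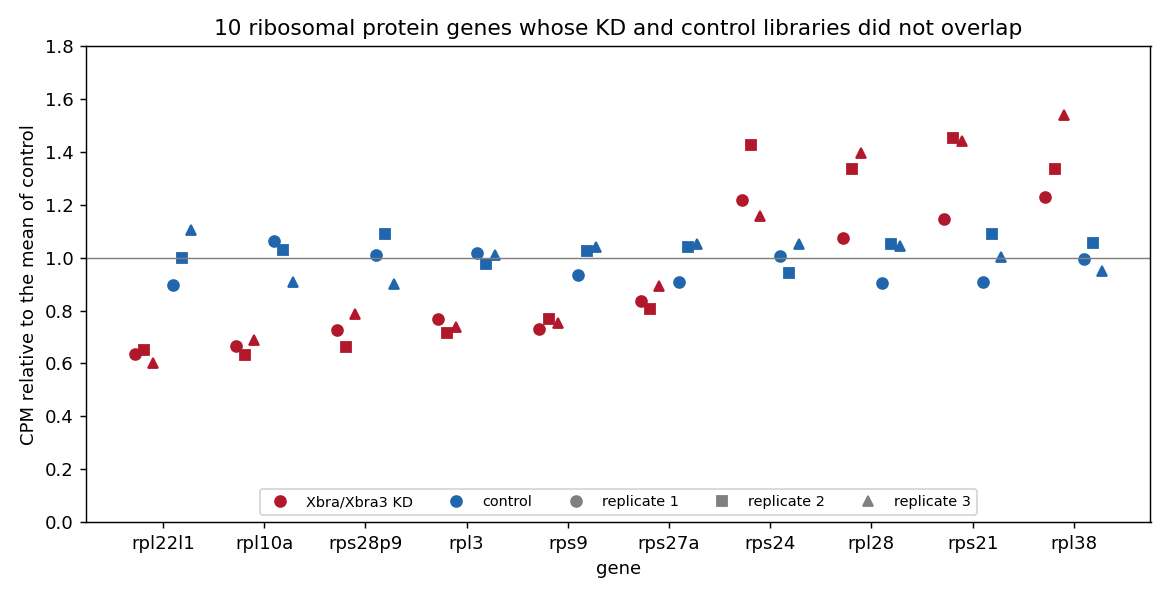
CPM of the 10 ribosomal protein genes whose KD and control libraries did not overlap, each divided by the gene's control mean, with KD left of control and a symbol for each replicate number. The KD libraries of *rpl22l1* lie lowest and a KD library of *rpl38* lies highest.

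The genes were also set against the family's own total. When each gene was counted per 10000 ribosomal protein reads, 13 genes lay lower in all KD than in all control libraries and 24 lay higher. With the same divisor 14.1% and 13.1% of all genes did so. The divisor removes the level that the 75 genes shared within a library, which it does not do for other genes, and a lower share of some of the 75 raises that of others, so both sets of figures are not like for like. With the summed ribosomal protein reads as the library size, edgeR called 2 of the 75, both lower, beside 5.29% lower and 4.67% higher of all genes. *rpl3* made up 324.8, 252.7 and 260.1 of 10000 in KD and 415.0, 352.2 and 372.3 in control. *rps21* made up 64.7, 68.7 and 67.8 in KD and 49.5, 52.7 and 49.4 in control, the KD values lying close together on this scale. *rps10*, *rps7* and *rpl28* were among the other genes that were higher by this measure, and *rpl12*, *rps14* and *rpl7* among those that were lower. Between the subunits there were 139.6, 144.0 and 143.7 large subunit reads per 100 small subunit reads in KD, and 138.7, 139.9 and 143.2 in control. The groups overlapped in this ratio, and KD was higher in each of the 3 same-numbered pairs.

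Over all genes the replicate numbers paired the libraries, and a fit blocked on the number called more of the family. Across the 75 genes alone, deviations from the group mean correlated at r = 0.359, -0.018 and 0.071 between same-numbered libraries. The blocked fit gave 7 lower and 11 higher ribosomal protein genes, against 19% and 19.2% of all genes. To the 4 that fell this fit added *rpl3*, *rpl12* and *rps27a*. To *rpl38* it added 10 genes, among them *rps21*, *rpl28*, *rpl13a*, *rpl29*, *rps24*, *rps13*, *rpl23a* and *rpl22*, with log2 fold changes of 0.20 (*rpl22*) to 0.42 (*rps21*). With the block and library size alone, 6 were lower and 22 higher, beside 15.1% and 24.2% of all genes.

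Of the ribosomal proteins that the symbol rule misses, *rpsa*, the laminin receptor protein uS2, fell. It had 2058, 2121 and 2287 CPM in KD and 2856, 3420 and 2963 CPM in control, with a log2 fold change of -0.51 ± 0.15 (SE; edgeR, FDR = 0.0825, and 0.126 to 0.208 without any 1 library). The FDR of *rpsa* was 0.00565 when the fit was blocked on the replicate number. Without the block *gnb2l1*, which encodes the scaffold protein RACK1, had an FDR of 0.469. *fau*, made as a fusion with a ubiquitin-like protein, had an FDR of 0.746. A gene listed by a protein accession only, which the RefSeq table names *rpl39*, had an FDR of 0.707.

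Genes of the mitochondrial ribosome were a further list. Of 58 tested, 19 fell in KD, beside 6.98% of all genes, or 36 with the replicate block, beside 19% of all genes. Their median log2 fold change was -0.32. None rose in edgeR or DESeq2 or had an unadjusted p below 0.05 upwards. *mrpl37* had 21.5, 25.1 and 29.3 CPM in KD and 80.9, 86.5 and 82.2 CPM in control, a log2 fold change of -1.72 ± 0.14 (SE; edgeR, FDR = 0.00192). *mrpl28* fell by 0.98 and *mrpl11* by 0.93. Their counts stand beside those of the cytoplasmic genes as a description, and the difference between the groups of genes was not tested.

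Of genes that act with the ribosome, few passed the test without the replicate block and more with it. Without the block 6.98% of all genes tested fell and 7.44% rose, beside which the counts that follow stand. Of 52 genes with the eif prefix of initiation factors 2 fell and 2 rose. *eif5a*, needed to translate runs of proline, had 1023, 1054 and 984 CPM in KD and 2066, 1808 and 1424 CPM in control (log2 fold change -0.79 ± 0.17, SE). *eif2b5*, of the exchange factor eIF2B, fell by 0.65, and *eif2c4*, an older name for an Argonaute gene and no initiation factor, rose by 0.90. Of 18 elongation factors and other TOP mRNA genes 1 fell (*nap1l1*, a histone chaperone) and 2 rose (*eef2.2*, named for the translocation factor, and *ipo5*, an importin). Of 84 ribosome biogenesis genes 1 rose, *utp6* of the small subunit processome. The list's median was -0.19, beside 0.010 for all genes. Of 9 RNA polymerase I genes *polr1d.1* fell. Of 14 growth control genes 3 rose: *mycn*, with 34.1, 32.9 and 31.2 CPM in KD and 22.1, 18.8 and 22.7 CPM in control, and both genes named *tsc1*, an inhibitor of mTOR signalling. The 7 S6 kinase genes had log2 fold changes of -0.32 to 0.33, and none passed in edgeR or DESeq2 or at an unadjusted p of 0.05. With the replicate block 25 biogenesis genes were lower and 6 higher, and 14 initiation factor genes were lower and 5 higher, beside 19% lower and 19.2% higher of all genes.

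The family was higher in the stage 32 control libraries than in the stage 20 library. In stage 32 control embryos the 75 genes stood at a median of 1.69 times their level at stage 20 (TMM over all 7 libraries), whereas the median gene of all tested stood at 1.03 times. For 66 of the 75 the control mean was at least 1.5-fold above stage 20, against 32% of all genes, and for none was it 1.5-fold below, against 23.4%. In 74 of the 75 every control library lay above the stage 20 library, *rpl3l* being the exception, against 40% of all genes. The stage 20 embryos were uninjected and are 1 library, so there is no test, and stage, injection and library cannot be told apart. Library size as the scaling gave 1.84 times, and TMM computed without the 75 genes 1.71.

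**Figure D5:**
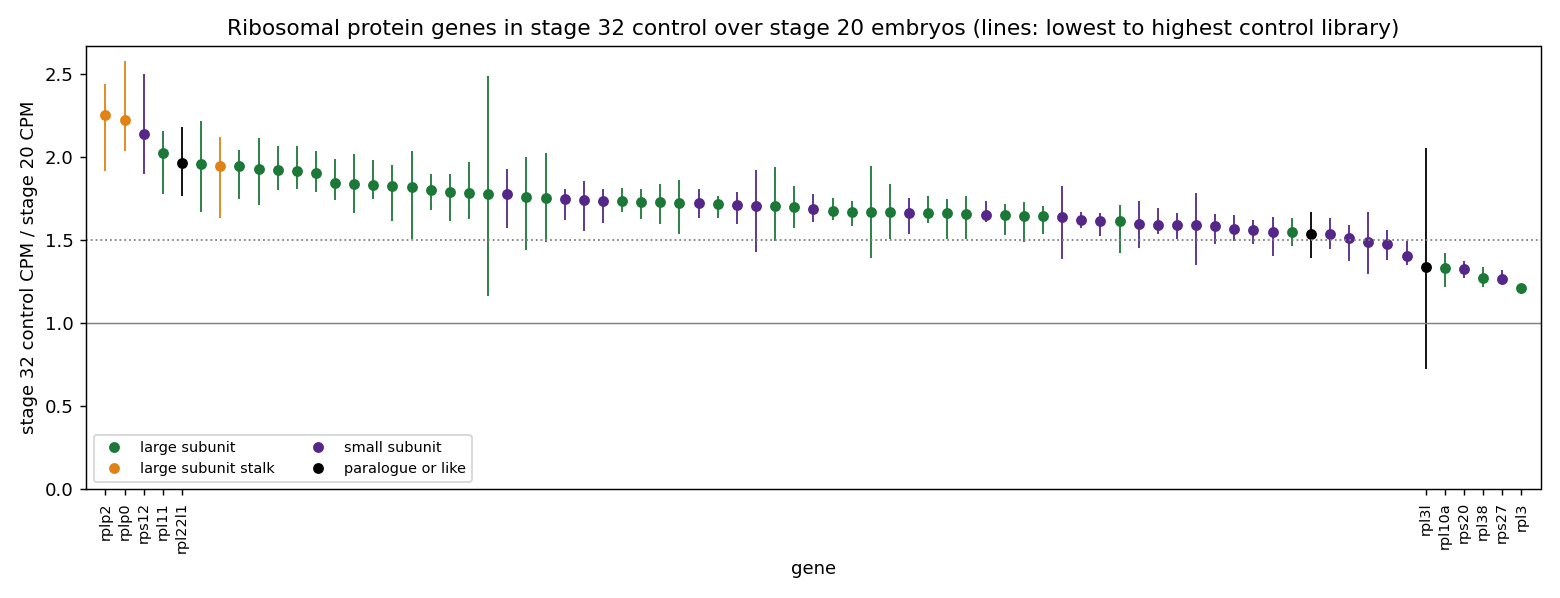
Mean CPM of the stage 32 control libraries over the CPM of the stage 20 library for the 75 ribosomal protein genes, with lines from the lowest to the highest control library, a dotted line at 1.5 and names at both ends of the order. The values run from 2.25 for *rplp2* to 1.21 for *rpl3*, and the line of *rpl3l* alone crosses 1.

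The stalk genes *rplp2* and *rplp0* were at the top of this order. *rplp2* had 497, 623 and 632 CPM in the control libraries and 259 CPM at stage 20, a ratio of 2.25. *rplp0* had 432, 543 and 429 CPM in control and 211 CPM at stage 20, a ratio of 2.22. The third stalk gene, *rplp1*, stood lower in the order, at 1.95. *rps12*, of the small subunit's beak, followed at 2.14 and *rpl11* at 2.02, and *rpl22l1* stood at 1.96. The ranges of these neighbours over the control libraries overlapped.

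At the low end were *rpl3* (1.21), *rps27* (1.27), *rpl38* (1.28), *rps20* (1.33) and *rpl10a* (1.33). *rpl3* had 4031, 3836 and 4016 CPM in control and 3263 CPM at stage 20. *rpl10a* had 1791, 1719 and 1533 CPM in control and 1261 CPM at stage 20. *rpl38* had 399, 419 and 381 CPM in control and 313 CPM at stage 20. The control libraries serve in both comparisons, so the order by stage is no independent check on the order by KD. The large subunit had a median ratio of 1.73 and the small subunit of 1.60. The median ratio was 0.97 for initiation factor genes, 0.87 for biogenesis genes and 1.77 for mitochondrial ribosomal protein genes.

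6 genes had more than 1 transcript in the table. In *rpl12* both transcripts held many reads. The first had 11710, 11546 and 15343 in KD and 16617, 19980 and 15677 in control. The second had 14734, 15516 and 19020 in KD and 19373, 23587 and 18759 in control. These are raw reads of libraries that differ in depth, and scaled values per transcript were not computed. The log2 fold change of *rpl12* as a gene was -0.34 ± 0.16 (SE; FDR = 0.236). In *rps15a* 2 transcripts held most reads, and in *rpl21*, *rplp0* and *rps24* nearly all reads were on 1.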

How the data were processed

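Poly(A) RNA was sequenced with paired 55-base reads. Pairs were mapped by the authors with Bowtie 0.12.7 to the Ensembl JGI4.1 transcriptome. Pairs that hit more than 1 gene were dropped, and 1 count was kept where a pair hit several transcripts of the same gene. The deposited values are raw read counts per transcript, which were summed per gene here. The header names 7 libraries after 6 empty fields, and these names were given in order to the 7 value columns. Libraries held 73740300 to 120160026 reads, so counting error is small beside the spread between libraries. Transcript lengths were not used here, so levels were not compared between genes. The labels call the 3 libraries of a group biological replicates, and do not say whether each number is a separate clutch.

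KD and control were compared with edgeR 4.0.16 (R 4.3.3): at least 10 reads over the 6 stage 32 libraries, TMM, quasi-likelihood test, Benjamini-Hochberg adjustment over all genes, FDR below 10%, no term for the replicate. With 3 against 3 an exact permutation test cannot give p below 0.1. Deviations from the group mean correlated across all genes tested at r = 0.573, 0.586 and 0.316 between same-numbered KD and control libraries. Between others r was no more than 0.00961, so the numbers pair the libraries over all genes. The 3 deviations of a group sum to 0, which pulls r between others down where same-numbered r is high. Across the 75 genes alone r was 0.359, -0.018 and 0.071 between same-numbered libraries and up to 0.126 between others. An r across genes leaves out the level that these genes share within a library. Alternatives were 8 other scalings, filters, DESeq2 1.42.0, an FDR of 5%, a prior count of 2, a replicate block and leaving out each library. The sum of ribosomal protein reads as the library size, edgeR's legacy dispersions and the 5 ribosomal protein genes outside the symbol rule were added after seeing the data.

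The members and lists were chosen with earlier results of these data known. Named are the called genes, the 5 with the most reads, the 5 largest rises and falls, the 5 highest and lowest stage ratios, and genes of known interest; a few genes under this rule are not reported here. *rps27a*, *rpl32*, *rpl12*, *rps10*, *rps7*, *rps14* and *rpl7* were named after their values were seen, as were the genes the block adds. The lists come from general knowledge. Scripts were tested on simulated data. 20 of 104 biogenesis names and 1 or 2 names of several other lists were not matched.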

Additional observations from a re-analysis of the deposited data

How the results depend on the processing

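Ribosomal protein genes called numbered 4 lower and 1 higher, beside 1182 and 1261 over all genes. The all-gene counts lower and higher follow in brackets for each other setting. Library size only gave 3 and 2 (869 and 1649). Scaling to *odc1*, *rpl8*, *eef1a1* and *gapdh* gave 2 and 1 (731 and 1283), and without *rpl8* 0 and 0 (411 and 802). The library size less the ribosomal protein reads gave 2 and 2 (782 and 1632). The summed ribosomal protein reads as the library size gave 2 and 0 (896 and 792). DESeq2 gave 5 and 3 (1740 and 1649), and an FDR below 5% gave 2 and 0 (616 and 653). Leaving out the 3 genes whose symbols mark a paralogue or a copy, *rps28p9* among them, gave 2 and 1 (1182 and 1261). Without 1 library, 1 to 3 were lower and 0 to 2 higher, beside 435 to 1043 and 433 to 918 over all genes. The causes were not tested. The median log2 fold change was 0.12 with library size only, 0.12 with scaling to the 3 genes other than *rpl8* and 0.13 with the library size less the ribosomal protein reads, and -0.018 to 0.14 without 1 library. Without 1 library the median less that of all genes was -0.020 to 0.14, and the ratio of read shares 1.01 to 1.15. Both ends of both ranges come from leaving out library 1 of 1 group only. It was the control library at the low end and the KD library at the high end. This keeps library 1 of the other group, which had that group's lowest ribosomal protein share. The log2 ratio of stage 32 control to stage 20 was 0.88 with library size only, against 0.76 with TMM. RLE, upper quartile, TMM without the 75 genes, both other filters, the prior count of 2, the legacy dispersions and the transcript with the most reads kept the counts within 1.5 times and the medians within the spread between pairs. For named genes, 545 of 598 alternative values stayed on the same side of the threshold, 49 of them with the other sign in genes that were not called. Of the rest 35 no longer passed and 18 newly passed, and no called value changed sign.

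The replicate block gave 7 lower and 11 higher, or 6 lower and 22 higher with library size only, where the median was 0.12. Over all genes these shares were 19% and 19.2%, and 15.1% and 24.2%. The paired fit takes out the level that same-numbered libraries share.

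Depth limits *rpl3l* (309 reads) and *rps27* (2814 reads). With 3 libraries a group, the median standard error of a member's log2 fold change was 0.15.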

Other observations

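Over the 7 libraries, the genes outside the family whose log2 level followed the mean of the 75 genes most closely were *slc16a13* (Pearson's r = 0.998), *LOC100485160* (r = 0.998), *cyth3* (r = 0.997), *agxt* (r = 0.996), *prdx2* (r = 0.995), *cdipt* (r = 0.994), a gene listed by a protein accession only (r = 0.994), *nr1h5* (r = 0.994), *atp5h* (r = 0.994) and *tnfrsf10b* (r = 0.993). The points share libraries and scaling, and the stage 20 library lies apart from the 6 others, so these values are a description over 7 libraries.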
